A study of Oryzias latipes with 7 samples.

Results

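The 300 brightest probe sets of an ovarian follicle array series were examined for stability and drift as follicles approached spawning. They are the 300 of 63698 probe sets (0.471%) with the highest mean log2 intensity over all 7 arrays, after probe sets with a gap of 2 or more between neighbouring sorted log2 values had been left out. Mean level and the gap criterion chose the members, so both are described below and neither is tested. The brightness of a probe set depends on how well its probes bind as well as on transcript abundance, so the ranking is one of signal and not a measured order of abundance.

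Follicles came from medaka (Oryzias latipes), a small teleost that spawns daily under long days, kept at 27 °C with 14 h of light and 10 h of dark. Total RNA of 100 isolated follicles per stage, taken as the largest and second-largest of the ovary, was labelled with Cy3 and hybridised to a 1-colour NimbleGen array. The stages were 47, 35, 32, 23, 14, 8 and 2 h before spawning, with 1 array at each, and no strain, age, agent or genetic change is named in the labels. The RNA is from pooled follicles, and the p-values below rest on the scatter of single arrays about a fitted line or step. Limma pulls that scatter toward a variance shared by all probe sets tested. For members of small range the p-values therefore reflect largely the shared variance and not their own scatter. One label field of the last stage reads 5 h, the others 2 h. The deposited series table also lists 5 of the 7 arrays under another stage than the per-array files, whose stages are used here. That table puts the 35 h array under 2 h, the 32 h array under 14 h, the 23 h array under 35 h, the 14 h array under 32 h and the 2 h array under 23 h. The array numbers have 8 digits at 35, 32 and 8 h and 6 digits at 47, 23, 14 and 2 h, which was treated as a possible batch.

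An ovarian follicle is an oocyte enclosed by granulosa and theca cells. During vitellogenesis the oocyte takes up yolk protein precursors made in the liver, and it stores maternal transcripts that it will use at and after maturation. Oocyte maturation, the resumption of meiosis, follows the surge of luteinizing hormone, and ovulation then frees the egg from its follicle cells. In bulk follicle RNA, fewer cells of a type and less RNA per cell cannot be told apart. The files give probe set identifiers without gene names, and 0 of the 300 identifiers occurred in the RefSeq gene table used here. The members are therefore described by identifier, and no role is given for any of them. For the same reason the follicle label could not be checked against granulosa, theca or oocyte markers.

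The members' readings reached the top of the scale. In stage order from 47 h to 2 h, the highest value on an array was 64718, 64267, 64593, 65049, 65279, 65327 and 65143. These are 98.1% to 99.7% of the usual upper limit of a microarray scanner's readings. Several probe sets shared the highest value exactly, within 0.01 intensity units. In the same stage order there were 40, 41, 38, 30, 5, 2 and 20 of them, and all were members. Ties were thus many on the 4 early arrays and at 2 h, and few at 14 and 8 h. The files carry no saturation mark, and the readings of single probes were not used here. A member at the shared highest value is therefore read only as at least that bright.

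**Figure D1:**
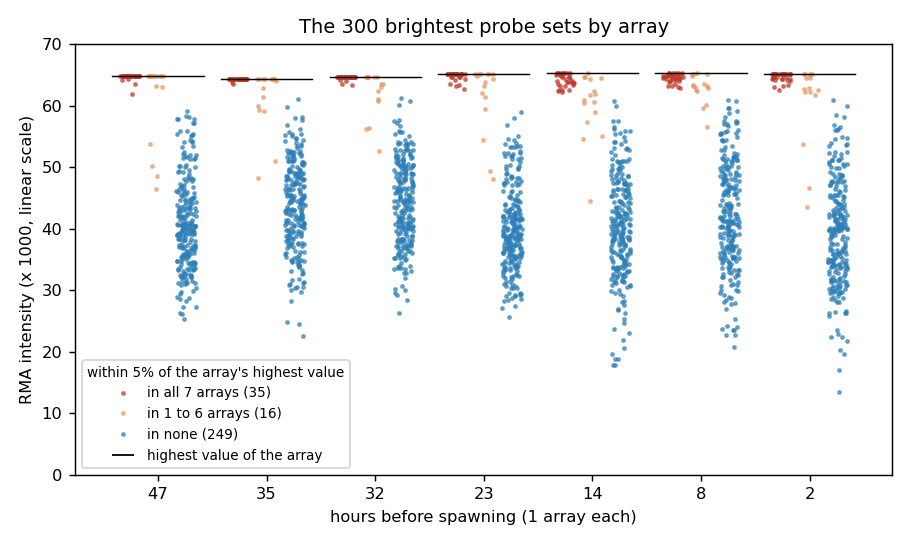
RMA intensity (linear scale) of each of the 300 members on each of the 7 arrays, in stage order, with members within 5% of the array's highest value in all 7 arrays, in 1 to 6 arrays and in none shown side by side. Black lines mark the highest value of each array, from 64267 to 65327, and the 249 members never near it spread below.

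Part of the members formed a block at this ceiling, and the others ran on beneath it. A member was called near the ceiling on an array when it lay within 5% of that array's highest value, a limit chosen after the values were seen. In all 7 arrays 35 members were near the ceiling, and 16 more were near it in 1 to 6 arrays. The other 249 were never near it. Of the 16, 13 were near the ceiling in 4 to 6 arrays and 3 in 1 or 2, so all 16 crossed this limit between arrays. The 35 had geometric mean intensities of at least 63759, whereas the brightest of the 249 averaged 57861. The 16 bridged these groups. Their mean log2 levels ran from 15.65 to 15.97, against 15.96 and above for the 35 and up to 15.82 for the 249.

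The 5 brightest members all belong to the ceiling block. K_OLAT0000S00023398 read 64718, 64267, 64593, 65049, 64914, 65326 and 65143 from 47 h to 2 h. K_OLAT0000S00023401, K_OLAT0000S00022825 and K_OLAT0000S00023077 had the same 64718, 64267 and 64593 at 47, 35 and 32 h and the same 65143 at 2 h. K_OLAT0000S00022647 shared the first 3 readings and read 64352 at 2 h. Each of the 5 equals the array's highest value on several arrays, so no order among them can be read.

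**Figure D2:**
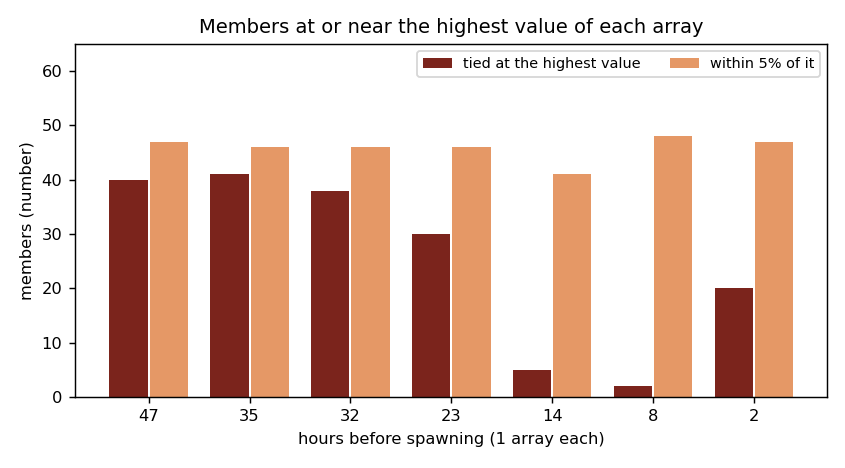
Number of members tied at the highest value of each array (dark bars, within 0.01 intensity units) and within 5% of it (light bars). Ties number 20 to 41 on 5 arrays but 5 at 14 h and 2 at 8 h, while 41 to 48 members lie within 5% on every array.

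The numbers near the ceiling varied less between stages than the exact ties. In stage order, 47, 46, 46, 46, 41, 48 and 47 members lay within 5% of the highest value. Outside the members only K_OLAT0000S00013788 and K_OLAT0000S00014275 came that close, both at 8 h, with 62128 and 63891. Both failed the gap criterion, and K_OLAT0000S00013788 also averaged 14.91 on the log2 scale, below the last member at 15.054. Of the 16 members near the ceiling on some arrays only, 3 were near it on just 1 or 2. OLAT0001S00019830 read 64593 at 32 h and 62963 at 8 h, against 43593 to 50989 on the other 5 arrays. OLAT0001S00038764 read 64267 at 35 h and 48018 to 56532 elsewhere, and K_OLAT0000S00012944 read 62785 at 8 h and 46357 to 56121 elsewhere. These 3 were named after their values were seen.

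The 5 members with the smallest range over the series were ceiling members as well. K_OLAT0000S00023029 spanned 0.0185 on the log2 scale, and K_OLAT0000S00022651, K_OLAT0000S00022727 and K_OLAT0000S00023064 each spanned 0.0195. K_OLAT0000S00023054 spanned 0.022. For comparison, the highest values of the arrays themselves ran from 64267 to 65327. Each of the 5 equals the array's highest value on several arrays, so a change in transcript level above that value would not show in these readings.

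Among the 249 members below the ceiling the least variable were OLAT0001S00000057 and OLAT0001S00000070, named after their values were seen. OLAT0001S00000057 read 55356, 54970, 55733, 51321, 54864, 55457 and 54555 from 47 h to 2 h, a range of 0.12 on the log2 scale. OLAT0001S00000070 read 50169, 52301, 49594, 51859, 51016, 48017 and 51116, also a range of 0.12. Neither set of readings ran in one direction with stage.

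The range of a member over the 7 arrays widened as its level fell below the ceiling. The median range on the log2 scale was 0.05 for the first 50 ranks, 0.35 for the next 50, 0.48 for the next 100 and 0.58 for the last 100. It was 0.42 over all 300 members, 0.47 over the 249 never near the ceiling, 0.76 over the 300 probe sets that follow in rank and 0.81 over the 1000 after those. Over all 47773 probe sets above a filter on low values it was 1.29. A range under 2-fold was found in 277 of the 300 members (92.3%) and in 226 of the 249 (90.8%). The same held for 73.0% of the following 300, 64% of the 1000 after those and 34.6% of all probe sets above the filter, or 36.4% of those that also met the gap criterion. The rule used both level and gap, so these shares are a description.

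**Figure D3:**
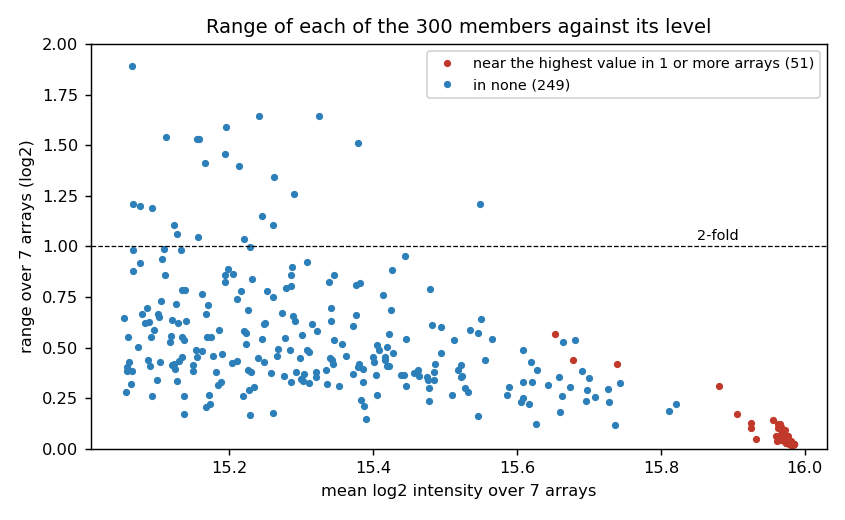
Range over the 7 arrays (log2) of each member against its mean log2 intensity, with the 51 members near the ceiling in at least 1 array apart from the other 249. Ranges shrink toward the ceiling, and the 23 points on or above the dashed line at 2-fold all belong to the 249.

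The ceiling also limited how far a member could rise. The mean log2 of the 7 highest values was 15.99, and the median member averaged 0.64 below it, a distance of 1.56-fold. At rank 300 the distance was 1.91-fold. All 300 members were thus less than 2-fold below the ceiling, so a reading 2-fold above a member's own mean could not occur. Between neighbouring stages no member was 2-fold higher at the later one, a count that the ceiling and the choice by high mean restrict in advance. No member was 2-fold lower at 35 h than at 47 h, at 32 h than at 35 h or at 23 h than at 32 h, where 12.6%, 5.26% and 18.6% of all probe sets above the filter differed 2-fold either way. Readings at least 2-fold lower at the later stage were found in 4 members for 14 h against 23 h, in 1 for 8 h against 14 h and in 6 for 2 h against 8 h. Over all probe sets above the filter the shares lower by that much were 4.41%, 15.5% and 12.4%. No member read higher at every later stage and none read lower at every one, which 0.142% and 0.283% of all probe sets above the filter did.

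The level of the members as a group separated by array-number series. Their median intensity in stage order was 42018, 46176, 46403, 41365, 42158, 44064 and 41309. The 3 arrays with 8-digit numbers (35, 32 and 8 h) were the 3 highest. On the log2 scale the members' median lay at 15.43 to 15.50 on the 8-digit arrays and at 15.33 to 15.36 on the 6-digit arrays, without overlap. The median of all probe sets went the other way, at 9.23 to 9.35 on the 8-digit arrays and 9.41 to 9.46 on the 6-digit arrays. Relative to the median of its own array, the members' median was 6.14 to 6.20 higher on the 8-digit arrays and 5.89 to 5.95 higher on the 6-digit arrays. The 300 probe sets that follow in rank showed the same split, at 5.60 to 5.67 and 5.31 to 5.44. The members' share of the summed intensity was 7.12% to 7.34% on the 8-digit arrays and 6.60% to 6.83% on the 6-digit arrays.

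**Figure D4:**
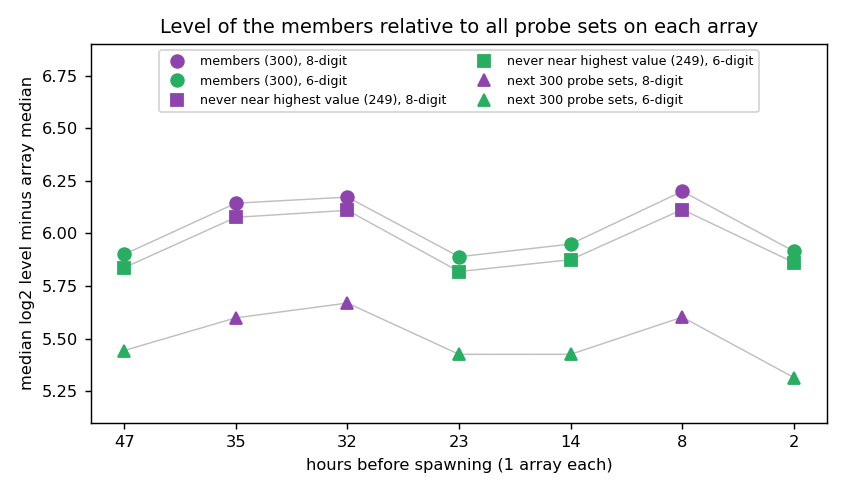
Median log2 level of the 300 members, of the 249 members never near the ceiling and of the 300 probe sets that follow in rank, each minus the median of all probe sets on the same array, by hours before spawning and coloured by array-number series. The 8-digit arrays (35, 32 and 8 h) lie above the 6-digit arrays in all 3 sets.

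Member by member the split was seen in part of the list. The highest reading fell on an 8-digit array in 183 members (61.0%), against 37.3% of all probe sets above the filter. This count covers all 300 members, including the 35 near the ceiling in all 7 arrays. Their ranges were only 0.0185 to 0.0668 on the log2 scale, so the place of their highest reading says little about transcript level. In 50 members (16.7%) all 3 of the 8-digit arrays lay above all 4 of the 6-digit arrays, and in 9 they lay below. Over all probe sets above the filter these shares were 8.30% and 11.6%. When each array was centred on its median, 146 members (48.7%) had all 8-digit arrays above, against 13.1% of all probe sets above the filter. The array medians were lower on every 8-digit array than on any 6-digit array. Centring thus raised all 8-digit readings relative to the 6-digit ones, also at the ceiling. It could only keep or raise the number of members. After quantile normalization 33 members (11.0%) had all 8-digit arrays above, against 10.2%, so under that scaling the members' share lay near that of all probe sets. That scaling gives every array the same distribution of values. It thus removes by construction a level difference shared by the brightest probe sets. Without the 8 h array, on the values as deposited, the number with all 8-digit arrays above was 86 (28.7%), against 14.8%. Leaving out an array can only keep or raise such a number of members. OLAT0001S00010776, named after its values were seen, read 41773, 47514 and 49169 at 35, 32 and 8 h, against 30878, 25649, 28021 and 31405 at 47, 23, 14 and 2 h. Its groups do not overlap, and the fitted series term was 0.68 ± 0.16 on the log2 scale (SE; adjusted p = 0.082, limma, 7 arrays). The series term was not called for any member (limma, adjusted p at or above 0.082), although 20 members (6.67%) passed an unadjusted p below 0.05. Over all probe sets above the filter limma called 0.00628%, and 24.1% passed the unadjusted limit. With a prior variance that follows the level (trended robust prior), 61 members passed it, against 11491 of the 47773 probe sets above the filter. The members' count at the unadjusted limit thus depends on the prior. Without the 2 h array limma called 3 members, against 13.9% of all probe sets above the filter. No source used here says what the array-number series stands for, and its part in the levels of the members was not tested beyond this term.

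Drift with stage was fitted as a slope on hours before spawning beside a term for the array-number series, and is given as the fitted log2 change across the 45 h of the series. Limma called no member at an adjusted p below 0.05, and the smallest adjusted p was 0.0792. Of all probe sets above the filter 0.655% were called. The shared variance set the SE of the least variable members. For K_OLAT0000S00023029 the SE of the fitted change was 0.1987, although its readings spanned only 0.0185. Without the 2 h array limma called 1 member, against 5.77% of all probe sets above the filter. At an unadjusted p below 0.05 there were 27 members (9.0%), 9 with a positive and 18 with a negative slope, against 22.6% of all probe sets above the filter and 21.9% of those that also met the gap criterion. With the trended robust prior 53 members passed, 17 positive and 36 negative, against 10768 of the 47773 probe sets above the filter. This count of members thus also depends on the prior. The median fitted change was -0.01 over the members and -0.10 over all probe sets. Centring each array on its median turned the members' median to 0.08, with all probe sets at -0.01, so the direction of so small a drift depends on the scaling. The fitted change was under 0.5 in size for 250 members and 1 or more for 5, all of them negative. The ceiling limits high readings but not low ones, and the directions of the slopes carry that limit.

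The 5 members with the most negative fitted changes were OLAT0001S00019460, OLAT0001S00017175, OLAT0001S00003040, K_OLAT0000S00015045 and K_OLAT0000S00013821, none of them called. OLAT0001S00019460 read 57863, 51745, 51134, 44640, 21967, 27744 and 21751 from 47 h to 2 h. Its 3 last readings lay below the other 4, and the fitted change was -1.55 ± 0.31 (SE; adjusted p = 0.0792, limma, 7 arrays). The other 4 had fitted changes of -1.29, -1.27, -1.20 and -1.05 in the order given, with adjusted p of 0.186 to 0.230 (limma). Single arrays decided the size of some of them. K_OLAT0000S00015045 came to -0.44 without the 2 h array, and K_OLAT0000S00013821 to -0.69 without the 47 h array and -1.60 without the 2 h array.

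The 5 most positive fitted changes were smaller in size than these. K_OLAT0000S00020945 read 32318, 29732, 29611, 41654, 51021, 49972 and 53683 from 47 h to 2 h, and its 4 last readings lay above the 3 first. Its fitted change was 0.93 ± 0.23 (SE; adjusted p = 0.104, limma, 7 arrays). OLAT0001S00026581 read 29456, 31671, 35897, 52092, 50876, 46339 and 50807, and its readings also split between 32 h and 23 h (fitted change 0.83 ± 0.26, SE; adjusted p = 0.146, limma, 7 arrays). OLAT0001S00032727, OLAT0001S00005446 and OLAT0001S00000690 had fitted changes of 0.81, 0.76 and 0.74, with adjusted p of 0.205 to 0.336 (limma). All 3 had their highest reading at 8 h, at 53461, 59188 and 54421. Without the 8 h array the fitted change came to 0.38 for OLAT0001S00032727 and 0.39 for OLAT0001S00005446. That of OLAT0001S00005446 was 0.48 without the 35 h array and 1.25 without the 47 h array, and that of OLAT0001S00026581 was 0.53 without the 47 h array.

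The 2 last stages were then set against the 5 earlier ones by fitting a step between 14 h and 8 h. Limma called 1 member, OLAT0001S00009674, which is named because of this call, and 3.41% of all probe sets above the filter. OLAT0001S00009674 read 23537 and 22330 at 8 and 2 h, against 40386, 44223, 41220, 43337 and 40963 at 47, 35, 32, 23 and 14 h. The 2 groups do not overlap, and the 5 earlier readings stayed between 40386 and 44223. The fitted step was -0.88 ± 0.15 (SE; adjusted p = 0.0418, limma, 7 arrays). The call ended without the array-number term (adjusted p = 0.06, limma), with the stages of the series table (1) and when any 1 array was left out (0.0532 to 0.134). The fitted step itself was -0.87 without the array-number term and -0.90 to -0.86 with 1 array left out, but -0.35 with the stages of the series table. Without the 8 h array limma called 4 other members, against 9.24% of all probe sets above the filter. At an unadjusted p below 0.05 there were 12 members (4.0%), 2 higher and 10 lower, against 24.4% of all probe sets. With the trended robust prior there were 37, 5 higher and 32 lower, against 11646 of the 47773 probe sets. The ceiling limits high readings but not low ones, so this split by direction was restricted in advance. The same split was not made over all probe sets. K_OLAT0000S00015045 had the largest fitted step at -1.08 ± 0.26 (SE; adjusted p = 0.0803, limma, 7 arrays).

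The 23 members with a range of 2-fold or more were described by the array on which they were lowest. The 14 h array was the lowest for 10 of them, the 2 h array for 7, and the 35 h and 8 h arrays for 3 each. None of the 23 was lowest at 47, 32 or 23 h. These groups were formed from the readings themselves and so carry no test, and the members named from them other than the 5 with the largest range were chosen after their values were seen.

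The 10 members lowest at 14 h share that low by the way they were grouped, and the rest of their course is given as a median. Their median intensity in stage order was 49940, 52658, 50779, 39584, 20144, 32729 and 34439. Their median was highest from 47 to 32 h, lower at 23 h, lowest at 14 h and intermediate at 8 and 2 h. K_OLAT0000S00014498 read 55884, 48931, 52541, 38825, 17895, 33296 and 39391 from 47 h to 2 h, a range of 1.64 on the log2 scale. OLAT0001S00003040 read 59180, 46357, 46790, 50383, 19657, 22637 and 36288, a range of 1.59. The reading at 8 h was well above that at 14 h for K_OLAT0000S00014498, and closer to it for OLAT0001S00003040. K_OLAT0000S00014077 had a range of 1.54, with 17867 at 14 h and 30858 to 52050 on the other arrays.

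**Figure D5:**
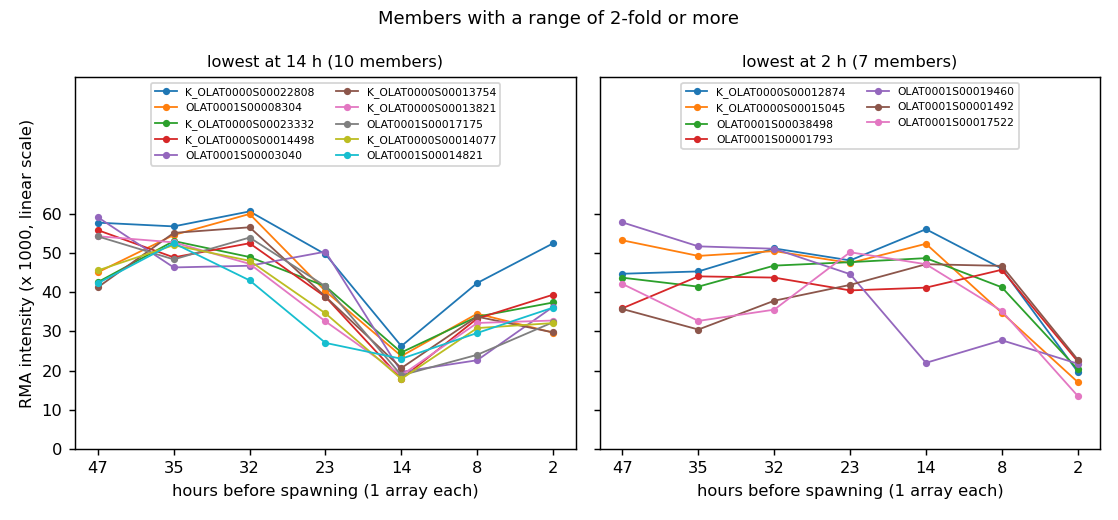
RMA intensity (linear scale) over the 7 stages of the members with a range of 2-fold or more that were lowest at 14 h (left, 10 members) or at 2 h (right, 7 members). At 14 h the left group lies between 17867 and 26250, and at 2 h the right group lies between 13531 and 22811.

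As a group the 7 members lowest at 2 h stood near their early level until then. Their median intensity was 43733, 44073, 46820, 47502, 47176 and 41282 from 47 h to 8 h and 20332 at 2 h. OLAT0001S00017522 had the largest range of all members, at 1.89 on the log2 scale, and read 42125, 32683, 35563, 50244, 47173, 35224 and 13531 from 47 h to 2 h. K_OLAT0000S00015045 read 53286, 49301, 50531, 47502, 52400, 34767 and 17074, a range of 1.64. OLAT0001S00017522 was lower at 8 h than at 14 h but within its early readings, whereas K_OLAT0000S00015045 at 8 h was already below all its earlier ones. OLAT0001S00019460, described above for its negative slope, was the 1 member of the 7 that was low from 14 h onward. By the series table the array behind the 2 h readings belongs to 23 h, and the one behind the 14 h readings to 32 h.

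The remaining wide members formed 2 groups of 3. OLAT0001S00005446, OLAT0001S00032727 and OLAT0001S00007613 read 22493, 24858 and 24483 at 35 h and were highest at 8 h, at 59188, 53461 and 54392. K_OLAT0000S00022371, K_OLAT0000S00020706 and K_OLAT0000S00023360 read 20690, 22720 and 23501 at 8 h. The first 2 of these also read lower at 35 and 32 h (31015 to 35846) than at 47, 23 and 14 h (39448 to 47773), and read 30699 and 33733 at 2 h. Their low arrays thus include all 3 with 8-digit numbers.

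Some of the 23 ran closely parallel. K_OLAT0000S00012874 and OLAT0001S00038498, both lowest at 2 h, had r = 0.99 across the 7 arrays and never differed by more than 0.20 on the log2 scale. OLAT0001S00008304 and K_OLAT0000S00013754, both lowest at 14 h, also had r = 0.99 and differed by at most 0.20. The 10 members lowest at 14 h had a median pairwise r of 0.90, from 0.67 to 0.99. The 7 lowest at 2 h had a median of 0.84, from 0.02 to 0.99, so not all of these ran parallel. Both groups share the arrays and were grouped by their lowest array, so these values only describe them. Whether such probe sets read the same transcript cannot be seen from the identifiers.

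The make-up of the brightest 300 changed between arrays. When the 300 brightest probe sets were taken on each array alone, without the gap criterion, 655 appeared in at least 1 array and 117 in all 7. All 117 were members, and they held the 35 ceiling members and 66 of the 249 never near the ceiling. In stage order, 221, 244, 238, 216, 212, 204 and 192 of the members were among the 300 brightest of the array. At 2 h the overlap was lowest. A further 6 members were not among the 300 brightest on any array and entered through their mean.

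Pairs of arrays shared 155 to 255 of their 300 brightest. The 35 h and 32 h arrays shared 255 (85.0% of each list), 23 h and 14 h shared 234 (78.0%), and 47 h and 35 h shared 217 (72.3%). The fewest were shared by 47 h and 8 h, with 155 (51.7%), followed by 23 h and 2 h with 160 (53.3%). Among the 249 members below the ceiling the median absolute log2 difference was 0.10 between 35 and 32 h, the closest pair in time, and 0.24 between 47 and 8 h, the largest of the 21 pairs. The 35 h and 32 h arrays also share the 8-digit series, whereas 47 h and 8 h lie in different series, so closeness in time and the array-number series cannot be told apart in these 2 pairs. Across these 249 probe sets the levels at 35 and 32 h correlated at r = 0.75 and those at 47 and 8 h at r = 0.01. The members were chosen for a narrow span of levels, and probe sets are not independent replicates.

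Features outside the rule were compared as a description. Of the members 193 had identifiers that begin with OLAT0001S and 107 with K_OLAT0000S, against 60.4% and 39.6% of all probe sets. The ceiling block was different, with 32 of its 35 members in the K_OLAT0000S class. Their identifier numbers run from 22554 to 23401, a stretch defined from these 32 after the values were seen. That stretch holds 711 probe sets, or 1.12% of the array, of which 53 were members. It is not bright throughout, since its median log2 level was 10.85 and 85 of the 711 lay below the filter on low values. The K_OLAT0000S class as a whole had a median of 8.00, with 8308 of its 25248 probe sets below the filter. By its median the stretch was thus brighter than its class. No source used here says what sets these identifiers apart on the array design. Probe number was the maximum of 6 in 291 members (97.0%) and in 99.3% of all probe sets. Members with a single probe numbered 3. One of them, K_OLAT0000S00021118, named after its values were seen, read from 52546 to 65183 with 4 arrays near the ceiling.

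At the edge of the list levels ran on without a break. The last 2 members, OLAT0001S00013774 and K_OLAT0000S00022785, averaged 15.056 and 15.054 on the log2 scale. OLAT0001S00007271 and K_OLAT0000S00022724, just outside, averaged 15.052 and 15.053. The gap criterion removed 2 probe sets that would otherwise have entered. K_OLAT0000S00014275 read 49907 to 63891 from 47 h to 8 h and 8080 at 2 h. OLAT0001S00030610 read 35778 to 49375 from 47 h to 8 h and 7779 at 2 h. K_OLAT0000S00013788, the next to be left out by level, read 30450 to 62128 before 2 h and 2307 at 2 h. These 3 stood low at 2 h alone, and the rule by its construction keeps such probe sets out of the list.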

How the data were processed

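Per the labels, RNA of pooled follicles was labelled with Cy3 and hybridised to 1-colour NimbleGen arrays, 1 per stage. Each file holds the intensities that the authors deposited as RMA summaries of a probe set's probes, on a linear scale, per the file headers. The submitters' processing notes name RMA without version or settings. RMA usually includes background correction and normalization between arrays. The deposited probe set summaries do not share 1 distribution, which does not tell which of these steps were run. Reads do not apply here, and precision is limited by having 7 arrays.

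Log2 intensities were used, with stages from the developmental stage labels. Slope, array-number series and step were fitted by lmFit and eBayes of limma 3.58.1 in R 4.3.3 on the 47773 probe sets with a mean above the 25th percentile (6.24), with Benjamini-Hochberg adjustment over all of them, and checked on simulated data. Other values came from Python 3.11.15 with pandas 2.3.3. The members, the gene lists and the tests were chosen with earlier results of these data known. Gene lists and cell type markers needed gene names and were not applied. Named probe sets are the 5 brightest, the 5 with the smallest and the 5 with the largest range, the 5 most positive and the 5 most negative slopes, those around rank 300 and 3 left out for a gap; others are said to be chosen after their values were seen. Sequences are not printed because the sources used here pair none with these identifiers. Alternatives were other rules for members, scalings, an offset, filters, a trended robust prior, terms, stages and leaving out each array.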

Additional observations from a re-analysis of the deposited data

How the results depend on the processing

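With 1 array per stage, no difference between 2 stages can be tested, and a transcript above the array ceiling has only a lower bound. No paired analysis was possible because each stage has a single array and the labels give no replicate numbers. The share of members within a 2-fold range stayed within 1.5 times 92.33% under all alternatives run, including 70.67% at a 1.5-fold limit, and was 92.33% to 94.67% with 1 array left out. The median range was 0.1774 for the 100 highest and 0.6681 for the 1000 highest probe sets, and 0.3858 to 0.4043 with 1 array left out. The number among the 300 brightest of every array was 66 over the members never near the ceiling and 117 to 127 with 1 array left out. Leaving out an array cannot widen a member's range or take a member out of these counts. The direction of these changes was thus fixed in advance.

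All 8-digit arrays lay above all 6-digit arrays in 6 of the 100 highest and 135 of the 1000 highest, against 8.30% of all probe sets. The highest value at 35 h was lower than that of any 6-digit array. A member tied at the highest value of a 6-digit array thus cannot show this pattern. Of the first 50 ranks, 48 were near the ceiling in at least 1 array. The count for the 100 highest was therefore restricted in advance. Among the 249 members never near the ceiling the number was 48 (19.3%). The number of members was 33 after quantile normalization (10.2% of all probe sets) and 146 after centring (13.1%). Centring could only keep or raise it. Without 1 array it was 51 to 86 and could only stay or rise. The 51 came without the 23 h array (4294 of all 47773 probe sets) and the 86 without the 8 h array (14.8%). Without the 2 h array limma called 1 member for the slope and 3 for the array-number series. It then called 5.77% and 13.9% of all probe sets. With any other single array left out it called 0 members and 0 of all probe sets for either term, so those 0 counts say nothing about the members. The median fitted change was 0.0817 after centring and -0.0168 to -0.0046 with 1 array left out.

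For the step between 14 h and 8 h limma called 6 members when ranked by median log2 level. It called 0 of the 100 highest and 13 of the 1000 highest, against 3.41% of all probe sets in each ranking. With the trended robust prior it called 2 members, against 3.65%. It called 0 with the times of the series table and without the array-number term, against 0% and 2.07% of all probe sets. For steps between 23 h and 14 h or 32 h and 23 h it also called 0, against 0.0251% and 0.787%. With 1 array left out it called 0 to 4, the 4 without the 8 h array, where 9.24% of all probe sets were called. The causes were not tested. Of the named slopes only that of OLAT0001S00005446 changed sign, to -0.13 with the times of the series table (adjusted p = 0.973, limma). Chosen after seeing the data were the restriction to members never near the ceiling, every alternative for the count with 8-digit arrays above, and the other distances that count as near the ceiling (65 members within 10% and 50 within 2% in at least 1 array, against 51 within 5%).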
